A study of Mus musculus with 8 samples.

Results

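ZFP281 is a DNA-binding protein with zinc fingers that is best known from pluripotent cells. Its binding summits were examined at 10 genes of the Notch pathway: the receptor genes Notch1, Notch2, Notch3 and Notch4, the ligand genes Jag1, Jag2 and Dll1, the DNA-binding effector gene Rbpj and the target genes Hes1 and Hey1. The genes were chosen by name, out of 21887 protein-coding genes of the mouse annotation, and a summit was counted for a gene when it lay in the gene or within 20 kb of either end (mm10). Notch signalling runs between touching cells. A ligand of the Jagged or Delta type on 1 cell binds a receptor on its neighbour, the receptor is cut by ADAM10 and then by gamma-secretase, and the freed intracellular domain joins RBPJ and a Mastermind protein on DNA to switch on repressor genes of the Hes and Hey families. In the mammary gland the pathway is known for its part in luminal cell fate, and Notch1 and Notch4 are known sites of proviral insertion by mouse mammary tumour virus in mouse mammary tumours.

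The chromatin came from spheres of MMTV-HER2/Neu mice, which carry the HER2/Neu oncogene under a viral promoter active in mammary epithelium, on the FvB strain in both groups. Primary tumour (PT) spheres came from animals older than 20 weeks with at least 1 primary tumour, and early lesion (EL) spheres from animals of 14 to 18 weeks in which no tumour could be felt; both were grown unattached for 7 days in mammosphere medium. Each group had 3 ZFP281 libraries, called biological replicates with no animal named, and 1 input library that was not analysed here. The tissue of the EL samples is labelled mammary lung and that of the PT samples breast tumor. Summit lists measure binding and not expression, so the labelled cell type could not be set against marker genes. Binding in fewer cells and weaker binding per cell cannot be told apart in such bulk material.

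The deposited lists held 2897, 4030 and 6033 summits in PT replicates 1, 2 and 3, and 8588, 15770 and 7055 in EL replicates 1, 2 and 3. The number of reads behind them is unknown, so no summit number could be scaled by depth. Main results are given for the full lists and for lists cut to the same length. The cut lists held the 2897 summits with the highest scores in each library. Counts with no list named are from the full lists. Scores are those the authors deposited, and they served to order and filter the summits of a list. Distances given for a region are from its midpoint. With 3 libraries against 3 the exact permutation test (two-sided) cannot give a p below 0.1, so no single comparison could pass 0.05.

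Each of the 10 genes carried a ZFP281 summit in at least 1 PT library, and all but Hey1 did so in at least 1 EL library. In PT, Notch3, Jag1, Jag2 and Rbpj did so in replicate 3 alone and Hey1 in replicate 2 alone. By library, 4, 6 and 9 of the 10 had a summit in PT replicates 1, 2 and 3, beside 16.7%, 21.6% and 29.0% of all protein-coding genes. In EL replicates 1, 2 and 3 the numbers were 8, 9 and 9, beside 34.7%, 48.4% and 30.7%. The windows of the 10 genes together held 8, 9 and 17 summits in the PT libraries, against 21, 36 and 20 in the EL libraries. The EL libraries were thus above the PT libraries in number. Per 1000 summits of a list this came to 2.76, 2.23 and 2.82 in PT and 2.45, 2.28 and 2.83 in EL, and in lists of equal length to 8, 7 and 10 summits in PT and 8, 10 and 8 in EL. On both of these scales the groups overlapped.

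A summit in at least 2 libraries of a group was found for 5 genes in PT (Notch1, Notch2, Notch4, Dll1 and Hes1) and for 9 in EL (all but Hey1). Of all protein-coding genes, 21.6% met this rule in PT and 36.4% in EL. The number in lists of equal length was 4 in PT (Notch1, Notch4, Dll1 and Hes1; 16.2% of all genes) and 4 in EL (Notch1, Notch3, Notch4 and Hes1; 16.9% of all genes). The 4 genes Notch1, Notch4, Dll1 and Hes1 had a summit in all 6 full lists, as did 13.0% of all genes, and 3 of them (Notch1, Notch4 and Hes1) in all 6 lists of equal length, as did 8.76% of all genes. No summit in any library was the state of 48.6% of all genes in full lists and 0 of the 10, and of 72.1% of all genes and 4 of the 10 (Jag1, Jag2, Hey1 and Rbpj) at equal length. The median length of the 10 genes was 29.7 kb, against 17.2 kb over all genes, and a longer gene offers more room for summits.

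The 3 genes Notch1, Jag1 and Hes1 had more summits in every EL library than in any PT library, and no gene of the 10 had the reverse. Over all protein-coding genes 9.26% stood higher in every EL library and 0.274% in every PT library. None of the 10 genes was free of overlap in either direction once the lists had equal length, where 2.12% of all genes were higher in EL and 1.83% in PT. The median difference over the 10 genes, PT minus EL, was -1.50 summits in full lists and 0 in lists of equal length, and the median over all protein-coding genes was 0 in both. After Benjamini-Hochberg adjustment of the exact permutation p over all 21887 genes, the adjusted p was 1 for each of the 10 genes.

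**Figure D1:**
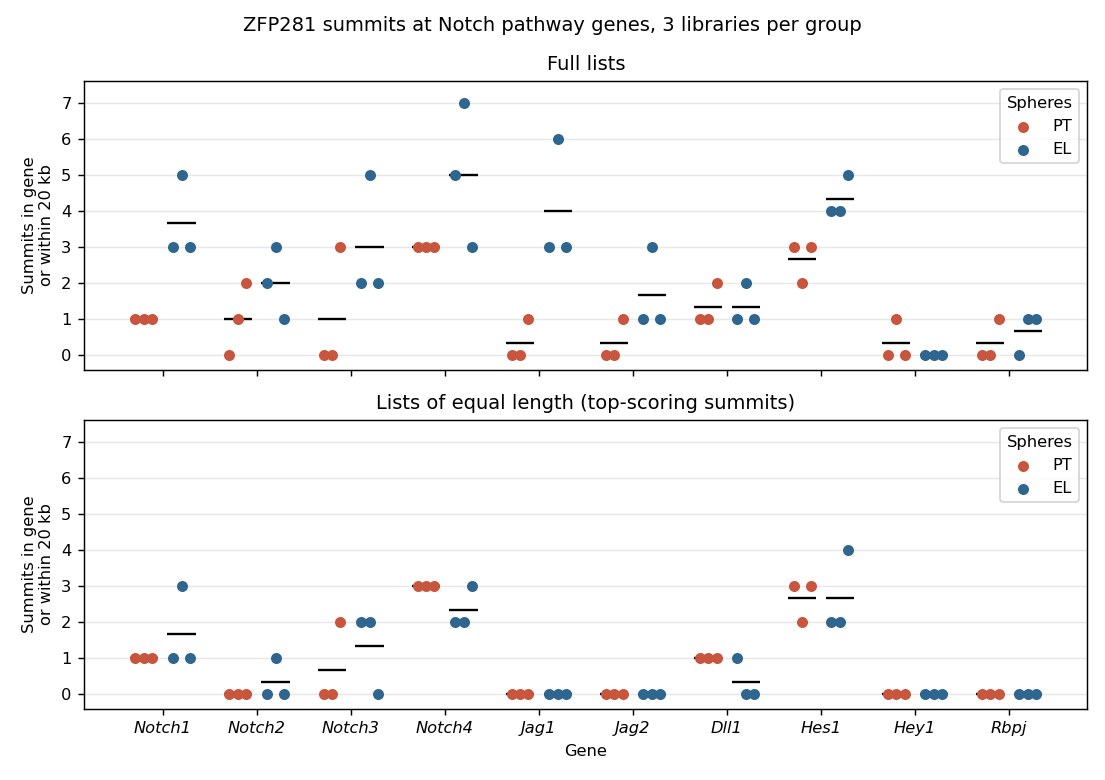
Number of ZFP281 summits (vertical axis) in each gene or within 20 kb of it (horizontal axis), 1 point per library for PT and EL spheres, with bars at the means of 3 libraries, for full lists (upper panel) and lists of equal length (lower panel). Notch1, Jag1 and Hes1 have every EL point above every PT point in the upper panel, and no gene does in the lower panel.

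Notch1, the receptor gene best known for activating mutations in T cell leukaemia, spans chromosome 2 from 26457902 to 26503822 on the minus strand. It held 1 summit in each of the 3 PT libraries, against 3, 5 and 3 summits in EL replicates 1, 2 and 3. The difference of the means was -2.67 summits (1.00 ± 0 in PT and 3.67 ± 1.15 in EL, SD, n = 3 each; exact permutation p = 0.1, two-sided). The 1 PT site was shared by all 6 libraries. It lay inside the gene, at 26459033 to 26459061, 1.15 kb from the boundary where transcription ends and 44.8 kb from the start, and the 6 summits fell within 29 bp.

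At this shared Notch1 site the score ranked 1447th, 1178th and 1204th in PT replicates 1, 2 and 3, and 213th, 437th and 311th in EL replicates 1, 2 and 3. Every EL library placed it nearer the top of its list than any PT library did. As a percentile of each full list the score stood at 67.0 ± 15.3 in PT and 96.8 ± 1.03 in EL (SD, n = 3 each), a difference of -29.8 percentile points (two-sided exact permutation p = 0.1; Benjamini-Hochberg value 0.247 among the 1573 regions found in all 6 libraries). Percentiles of lists that differ in length are not on 1 scale, and the median difference over those 1573 regions was -10.5 points, with 36.4% of them higher in every EL library and 4.13% in every PT library. With list lengths made equal the percentile was 56.0 ± 5.12 in PT and 89.0 ± 3.88 in EL, a difference of -33.0 points (two-sided exact permutation p = 0.1; Benjamini-Hochberg value 0.314 among 996 regions). There the median difference over the regions was -0.725 points, with 18.0% higher in every EL library and 13.9% in every PT library.

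The other Notch1 summits were found in EL alone. A region at 26487002 to 26487197, 16.7 kb inside the gene from its start, and another at 26493538 to 26493574, 10.3 kb from the start, each held a summit in all 3 EL libraries and no PT library. Their score percentiles were 40.4, 87.3 and 55.8 for the first and 37.5, 82.8 and 23.7 for the second, in EL replicates 1, 2 and 3. Both kept a summit in EL replicate 2 only when the lists had equal length. Regions with a summit in all 3 EL and no PT library made up 10% of all regions (1937 of 19317), a region being a run of summits from all 6 lists with gaps of up to 200 bp.

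Notch2, a receptor gene of 137 kb, had 0, 1 and 2 summits in PT replicates 1, 2 and 3 and 2, 3 and 1 in EL replicates 1, 2 and 3, so the groups overlapped (exact permutation p = 0.5, two-sided). Its main region lay 627 bp inside the gene from the start, at 98014067 to 98014264 on chromosome 3, in PT replicates 2 and 3 and all 3 EL libraries. Score percentiles there were 14.9 and 13.9 in those PT libraries and 61.3, 86.5 and 7.44 in EL replicates 1, 2 and 3. Only the EL replicate 2 summit was among the top 2897.

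Notch3, a receptor gene known from vascular smooth muscle, had 0, 0 and 3 summits in PT replicates 1, 2 and 3 and 2, 5 and 2 in EL replicates 1, 2 and 3 (exact permutation p = 0.3, two-sided). PT replicate 3 alone set the PT value, and it overlapped the EL libraries. A region 2.79 kb beyond the boundary where transcription ends, at 32118016 to 32118042 on chromosome 17, was in all 3 EL and no PT library, with score percentiles of 66.4, 84.8 and 43.8 in EL replicates 1, 2 and 3. A second region, 2.05 kb inside that boundary, was in PT replicate 3 and all 3 EL libraries, at percentiles of 62.8 in PT and 75.2, 81.8 and 4.95 in EL.

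Notch4, a receptor gene expressed mainly in endothelium in normal tissue, had 3 summits in each PT library and 5, 7 and 3 in EL replicates 1, 2 and 3 (exact permutation p = 0.4, two-sided). Among the top 2897 it had 3 in each PT library and 2, 2 and 3 in EL, which turned the difference from -2.00 to 0.667 summits, PT minus EL (exact permutation p = 0.4, two-sided). Much of this binding lay at neighbours in a gene-dense stretch of chromosome 17. A region at 34604157 to 34604310, 15.7 kb above the upper boundary of Notch4 and at the lower end of Agpat1, an enzyme gene of phospholipid synthesis, was found in all 6 libraries. Its score percentiles were 83.2, 67.6 and 71.5 in PT and 96.0, 96.6 and 92.1 in EL, without overlap in full lists (exact permutation p = 0.1, two-sided) and with overlap at equal length (exact permutation p = 0.3, two-sided). Every library also had a summit in Pbx2, a homeobox gene, 3.83 or 4.16 kb above Notch4. Counted for the nearest gene only, Notch4 kept 1 summit in each PT library and 2, 4 and 0 in EL.

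Inside Notch4, 12.4 kb from its start, a region at 34576635 to 34576704 carried a summit in all 3 PT libraries and in EL replicate 2. The score percentiles were 62.2, 79.7 and 58.8 in PT replicates 1, 2 and 3 and 54.9 in EL replicate 2. Among the top 2897 summits this site was left in the 3 PT libraries and in no EL library. It was the only region of the 10 genes with that pattern, which 6.29% of the 6093 regions of those lists showed, against 7.29% with the reverse pattern and none at the 10 genes. With 1 such region among 18 the share is near the background.

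**Figure D2:**
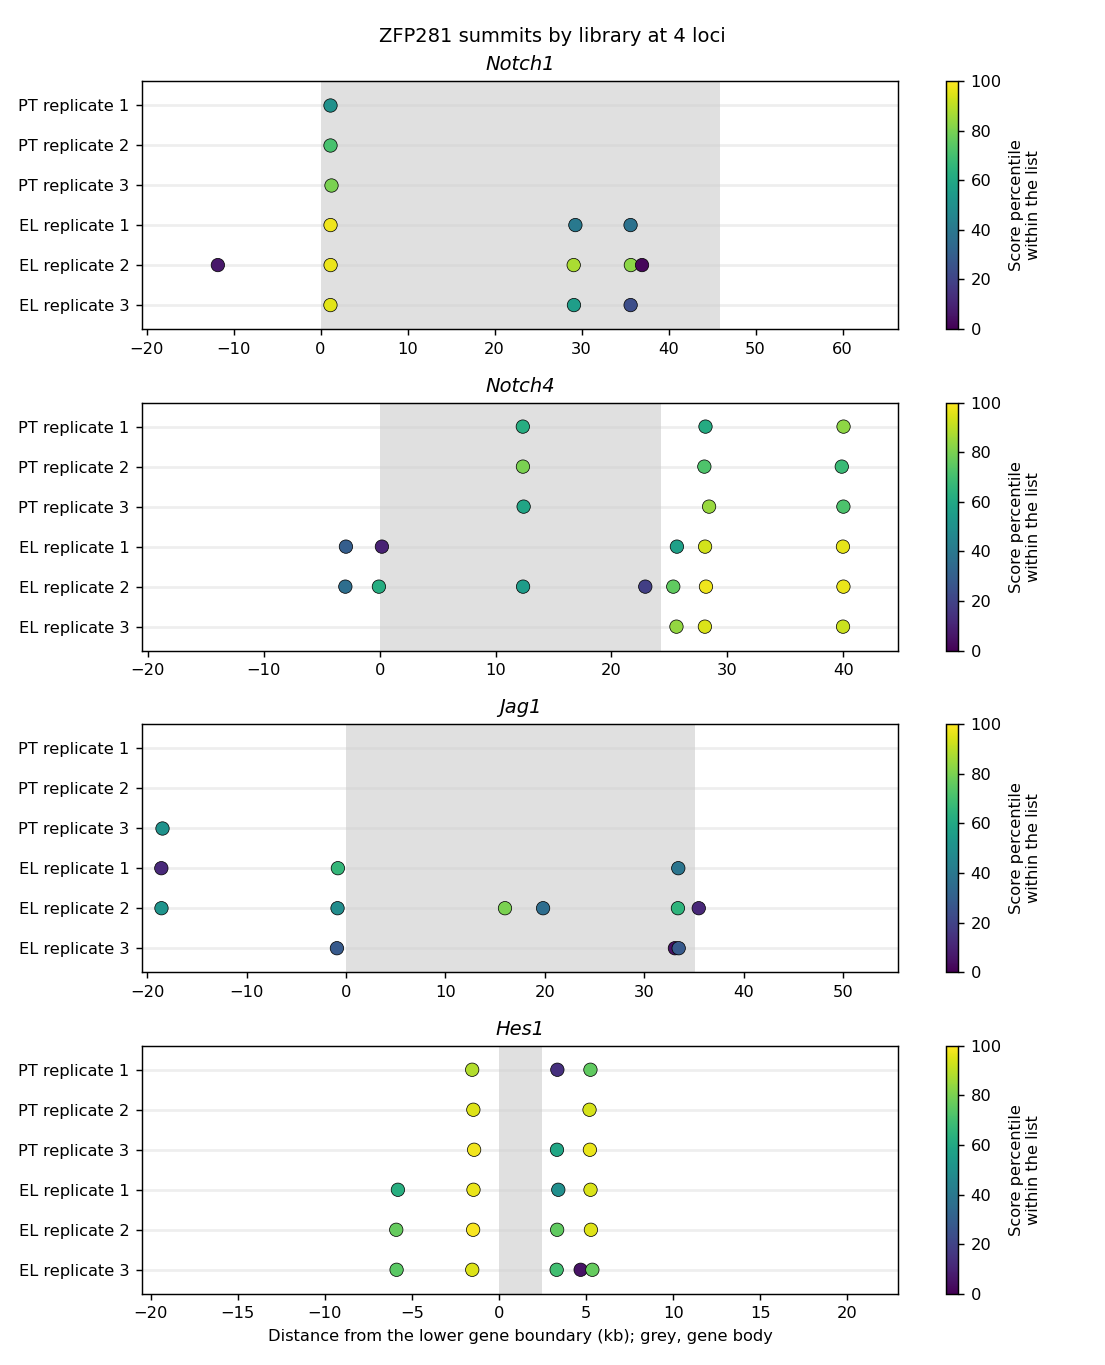
Positions of ZFP281 summits at Notch1, Notch4, Jag1 and Hes1 in full lists, as distance from the lower gene boundary in kb (horizontal axis), 1 row per library with PT above EL; grey marks the gene body and colour the score percentile within the list. The PT rows show 1 Notch1 site, at 1.15 kb, against 3 or more sites in the EL rows, and the Hes1 sites at 1.49 kb below and 2.84 kb above the gene appear in all 6 rows.

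The ligand genes of the Jagged type had few PT summits. Jag1, the ligand gene mutated in Alagille syndrome, had 0, 0 and 1 summit in PT replicates 1, 2 and 3, against 3, 6 and 3 in EL replicates 1, 2 and 3. The difference of the means was -3.67 summits (0.333 ± 0.577 in PT and 4 ± 1.73 in EL, SD, n = 3 each; exact permutation p = 0.1, two-sided), the widest of the 10 genes, and it was -2.67 without EL replicate 2. It was not the widest under every count. For the nearest gene only it was -2.33 at Jag1 and -2.33 at Notch1, and in the gene body alone -2.00 at Jag1 and -2.33 at Notch1. The best-placed Jag1 summit by percentile, 79.8, was inside the gene at 137097448 and in EL replicate 2 alone. The region 1.64 kb inside the gene from its start (chromosome 2, 137114844 to 137114920) stood at percentiles of 38.8, 65.0 and 27.8 in EL replicates 1, 2 and 3. The region 0.860 kb below the lower boundary, at 137080542 to 137080640, inside the end of Slx4ip, a gene linked to DNA repair, stood at 66.4, 48.7 and 27.8. Jag1 held no summit in any list of equal length. The one with the best rank, in EL replicate 1, ranked 2899th and so missed the limit by 2 places. A Notch3 summit of the same library ranked 2879th and was kept. Both had a score of 12.5 and a percentile of 66.4, and that list was cut at a score of 12.5. Equal scores were ranked in list order, so the gap in rank does not show a lower score at Jag1.

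Jag2 had 0, 0 and 1 summit in PT replicates 1, 2 and 3 and 1, 3 and 1 in EL replicates 1, 2 and 3 (exact permutation p = 0.3, two-sided), and none in lists of equal length. The EL summits shared a region 9.89 kb below the lower boundary (chromosome 12, 112897897 to 112897931), beyond the end of transcription, at percentiles of 27.7, 73.9 and 48.9. PT replicate 3 and EL replicate 2 had summits in a region centred 528 bp inside the gene from an annotated start, at 112928930 to 112929005.

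Dll1, the Delta-type ligand gene, was the ligand gene with a summit in all 6 libraries. It had 1, 1 and 2 summits in PT replicates 1, 2 and 3 and 1, 2 and 1 in EL replicates 1, 2 and 3 (exact permutation p = 1, two-sided). Cut to equal length, the lists had 1 in each PT library and 1, 0 and 0 in EL (exact permutation p = 0.4, two-sided), so 1 EL library still overlapped the PT libraries. The main region, at 15376078 to 15376192 on chromosome 17, lay 312 bp before the inner of 2 annotated starts and inside the longer gene model. It held summits in PT replicates 2 and 3, at percentiles of 56.8 and 86.4, and in EL replicates 1, 2 and 3, at 70.6, 80 and 58.1. PT replicates 1 and 3 and EL replicate 2 had a summit in a region centred 3.75 kb before the outer start.

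Rbpj, whose product is the DNA-binding partner of every Notch receptor, had 0, 0 and 1 summit in PT replicates 1, 2 and 3 and 0, 1 and 1 in EL replicates 1, 2 and 3 (exact permutation p = 1, two-sided). All of them fell in 1 region, at 53589174 to 53589346 on chromosome 5, about 1.09 kb before the nearest start of the promoter table. The percentiles were 25.4 in PT replicate 3 and 48.0 and 22.0 in EL replicates 2 and 3, and none remained in lists of equal length.

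Hes1, the classical Notch target gene, which encodes a basic helix-loop-helix repressor, had a better-ranked summit than any other of the 10 genes in all 3 PT libraries and in EL replicate 2, while Notch1 had the best in EL replicates 1 and 3. Hes1 had 3, 2 and 3 summits in PT replicates 1, 2 and 3 and 4, 4 and 5 in EL replicates 1, 2 and 3, with no overlap. The difference was -1.67 summits (2.67 ± 0.577 in PT and 4.33 ± 0.577 in EL, SD, n = 3 each; exact permutation p = 0.1, two-sided). The counts in lists of equal length were 3, 2 and 3 in PT and 2, 2 and 4 in EL, with means of 2.67 in both groups (exact permutation p = 1, two-sided). None of the summits lay in the gene itself, a short gene of 2440 bp on chromosome 16.

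A first Hes1 region, at 30063813 to 30063925, 1.49 kb below the lower boundary, ranked 341st, 210th and 141st in PT replicates 1, 2 and 3 and 288th, 148th and 360th in EL replicates 1, 2 and 3. The groups overlapped, with percentiles of 93.6 ± 4.81 in PT and 96.9 ± 2.08 in EL (SD, n = 3 each; exact permutation p = 0.4, two-sided). A second region, at 30070555 to 30070717, 2.84 kb above the upper boundary, ranked 708th, 266th and 202nd in PT replicates 1, 2 and 3 and 477th, 757th and 1665th in EL replicates 1, 2 and 3. Its percentile in full lists was 88.5 ± 11.4 in PT and 88.7 ± 10.7 in EL, and in lists of equal length 86.5 ± 9.51 in PT and 66.7 ± 21.4 in EL (SD, n = 3 each; exact permutation p = 0.2, two-sided), with overlap in both.

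Between these lay a weaker region, 0.918 kb above the upper boundary, in PT replicates 1 and 3 (percentiles 14.0 and 59.2) and in EL replicates 1, 2 and 3 (49.3, 75.5 and 69.8). A further region, 5.86 kb below the lower boundary, at 30059453 to 30059548, held a summit in all 3 EL and no PT library at percentiles of 62.8, 76.3 and 74.4. This region remained among the top 2897 in EL replicate 3 alone. A last summit, 2.25 kb above the upper boundary, was found in EL replicate 3 only, at a percentile of 4.95. Hey1, a second target gene of the same repressor class, had a single summit, in PT replicate 2, with a percentile of 0.372, and none in any EL library. That summit, at 8667001 on chromosome 3, lay inside the neighbouring gene LOC115489673 as well.

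**Figure D3:**
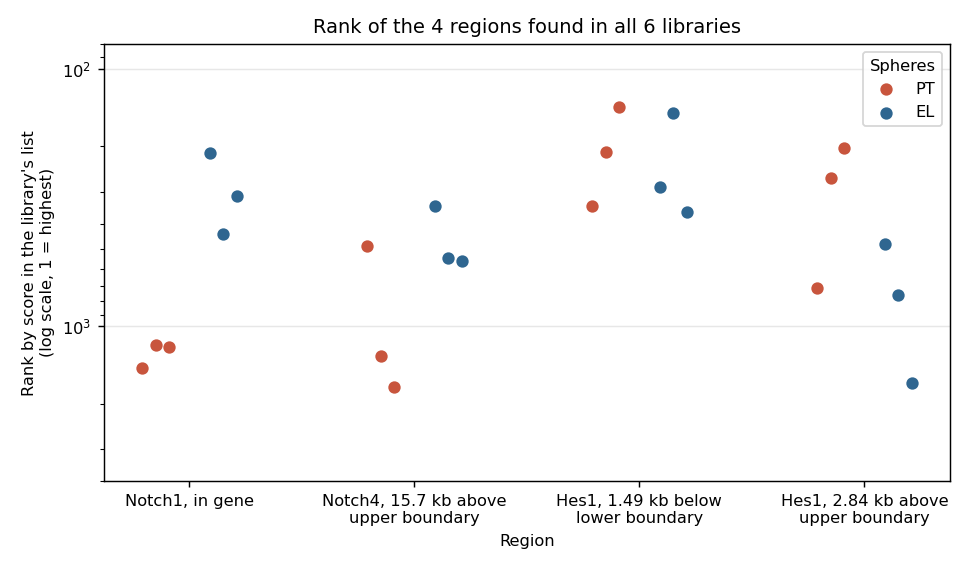
Rank by score (vertical axis, logarithmic, highest score at the top) of the 4 regions found in all 6 libraries, 1 point per library for PT and EL spheres. At Notch1 the 3 PT points lie at 1178 to 1447 and the 3 EL points at 213 to 437, while the points of the groups overlap in rank at the Notch4 region and both Hes1 regions.

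The 4 regions found in all 6 libraries (at Notch1, Hes1 in 2 places, and Notch4 next to Agpat1) were among 44 regions of the 10 genes. Over all regions of the genome, 8.14% were found in all 6 libraries. A further 7 of the 44 were in all 3 EL and no PT library (10% of all regions) and none was in all 3 PT and no EL library (0.704%). Single libraries gave 19 regions, and 12 of these were in EL replicate 2, the longest list. The share of such regions over the genome is not given here, so these counts are no trait of the 10 genes. At equal list length 26 of the 44 regions had no summit left and 18 kept one, against 6093 of all 19317 regions that kept one. Per 100 kb of gene and flanks in full lists, Hes1 and Notch4 had the most summits in both groups. Their means were 6.28 and 4.67 in PT and 10.2 and 7.78 in EL. Dll1 came next in PT, at 2.69, and Jag1 next in EL, at 5.33, though Jag1 had no summit at equal list length. In EL each gene overlapped the next one down in that order over its 3 libraries, and in PT all genes from Notch1 downwards did. Over all protein-coding genes the median was 0 in both groups, and the upper quartile 0.525 summits per 100 kb in PT and 1.47 in EL.

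RefSeq promoter sequences (GRCm38.p6, which is mm10) each ran from 250 bases before to 50 after a start. They were matched for 8 of the 10 genes, all but the target genes Hes1 and Hey1, with 10 promoters in all. A summit lay inside 3 of them, those of Notch2, Notch3 and Notch4, each time in EL replicate 2 alone. Of all 32851 promoters, 7.70% held a summit of any library and 1.81% one of EL replicate 2 alone. The promoters of Notch2 and Notch4 are printed because they hold such a summit, and the inner promoter of Dll1 because the region bound in 5 libraries begins just beyond its far end. Of 40 promoters of the other pathway genes described below, 8 held a summit, 7 of them in at least 3 libraries (2.98% of all promoters). Those of Numb, Spen, Furin and Psenen, a subunit gene of gamma-secretase, are printed from these 7, chosen after their values were seen: the first 2 have a motif core beside the summits, Furin has one farther off and Psenen has none. Letters run 5′ to 3′ along the transcribed strand, and capitals mark GGGGAGGG or TGGGGGAG, cores of the G-rich motif known for ZFP281, or GTGGGAA, the core known for RBPJ, on either strand. The 2 G-rich cores can overlap each other.
Notch2, chr3:98013288-98013587, plus strand: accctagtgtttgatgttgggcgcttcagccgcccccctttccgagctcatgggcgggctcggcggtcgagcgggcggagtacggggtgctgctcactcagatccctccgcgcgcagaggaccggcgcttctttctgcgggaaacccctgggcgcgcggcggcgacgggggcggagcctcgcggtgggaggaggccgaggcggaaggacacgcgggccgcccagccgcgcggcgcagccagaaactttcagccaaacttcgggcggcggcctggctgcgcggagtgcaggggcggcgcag
Notch4, chr17:34564045-34564344, plus strand: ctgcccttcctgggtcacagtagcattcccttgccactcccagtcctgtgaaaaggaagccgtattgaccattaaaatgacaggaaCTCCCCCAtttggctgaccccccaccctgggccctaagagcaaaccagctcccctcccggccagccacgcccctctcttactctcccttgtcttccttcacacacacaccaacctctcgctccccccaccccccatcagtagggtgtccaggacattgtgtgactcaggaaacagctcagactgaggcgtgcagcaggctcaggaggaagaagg
Dll1, chr17:15375774-15376073, minus strand: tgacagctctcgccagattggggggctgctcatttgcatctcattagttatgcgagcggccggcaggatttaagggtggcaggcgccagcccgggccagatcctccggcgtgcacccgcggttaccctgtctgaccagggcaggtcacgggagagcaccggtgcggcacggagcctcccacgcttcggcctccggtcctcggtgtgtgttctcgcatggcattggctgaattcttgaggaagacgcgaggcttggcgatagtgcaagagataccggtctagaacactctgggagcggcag
Numb, chr12:83921885-83922184, minus strand: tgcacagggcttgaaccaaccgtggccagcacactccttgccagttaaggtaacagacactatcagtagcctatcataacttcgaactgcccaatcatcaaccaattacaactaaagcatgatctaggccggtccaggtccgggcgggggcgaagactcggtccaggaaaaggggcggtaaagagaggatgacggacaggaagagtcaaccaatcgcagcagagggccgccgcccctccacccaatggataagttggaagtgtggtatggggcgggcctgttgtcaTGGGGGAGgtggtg
Spen, chr4:141538548-141538847, minus strand: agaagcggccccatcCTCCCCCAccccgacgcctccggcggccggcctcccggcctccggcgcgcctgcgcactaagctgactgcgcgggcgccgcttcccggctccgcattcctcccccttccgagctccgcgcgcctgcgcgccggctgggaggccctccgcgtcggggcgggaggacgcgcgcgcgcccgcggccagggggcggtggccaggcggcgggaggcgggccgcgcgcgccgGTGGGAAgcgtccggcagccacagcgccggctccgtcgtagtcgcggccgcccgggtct
Furin, chr7:80402763-80403062, minus strand: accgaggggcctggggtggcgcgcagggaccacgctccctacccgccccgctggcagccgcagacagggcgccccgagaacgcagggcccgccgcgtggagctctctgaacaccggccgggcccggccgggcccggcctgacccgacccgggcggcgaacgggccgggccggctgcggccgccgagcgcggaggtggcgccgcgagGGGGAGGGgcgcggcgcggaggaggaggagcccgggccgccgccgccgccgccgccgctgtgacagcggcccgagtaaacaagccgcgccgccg
Psenen, chr7:30563155-30563454, minus strand: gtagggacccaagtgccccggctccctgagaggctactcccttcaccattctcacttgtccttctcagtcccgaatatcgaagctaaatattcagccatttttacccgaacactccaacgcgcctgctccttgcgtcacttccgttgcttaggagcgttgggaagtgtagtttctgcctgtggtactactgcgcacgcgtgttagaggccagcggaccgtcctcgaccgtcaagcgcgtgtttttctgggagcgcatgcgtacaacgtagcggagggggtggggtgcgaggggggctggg

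In the Notch4 promoter the summit of EL replicate 2 lay at base 172, and a match to TGGGGGAG on the other strand began at base 87. In the Notch2 promoter the summit was at base 169, and no core was found. In the Numb promoter the summits of EL replicates 1, 2 and 3 were at bases 281, 254 and 288, and TGGGGGAG began at base 287. In the Spen promoter those of PT replicates 2 and 3 were at bases 39 and 55 and those of EL replicates 1 and 2 at bases 23 and 8, beside a match that began at base 16. In the Furin promoter the summits of PT replicate 3 and of EL replicates 1 and 3 were at bases 106, 102 and 54, and GGGGAGGG was found at base 207. The printed Psenen promoter held summits of PT replicates 1, 2 and 3 at bases 287, 259 and 285 and none of an EL library. In the gene or within 20 kb, however, Psenen had 2 summits in each PT library and 3, 4 and 2 in EL. In lists of equal length it had 2, 2 and 1 in PT and 1 in each EL library. A ZFP281 core stood in 6 of the 8 pathway promoters with a summit, as in 42.8% of all promoters with a summit. Of all 32851 promoters, 12.9% held at least 1 of the ZFP281 cores (10.8% GGGGAGGG and 3.94% TGGGGGAG), and 6.38% held GTGGGAA. Of the 10 promoters of the 8 genes, 2 held a ZFP281 core (Notch4 and Jag1) and 0 held GTGGGAA. The target genes Hes1 and Hey1 are not among the 8, so these counts do not cover them. A match is a run of letters and not a measured site. Over these 10 promoters the share of G and C was 55.7% to 86.0%, against a median of 52.7% over all promoters.

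The wider pathway was described with 38 other genes that act on Notch signals. A summit in at least 2 libraries was found for 12 of them in PT and 24 in EL, shares that stand beside 21.6% and 36.4% of all protein-coding genes. The numbers in lists of equal length were 11 in PT and 8 in EL, beside 16.2% and 16.9%. In 8 genes every EL library was above every PT library (9.26% of all genes), and in none was every PT library above (0.274% of all genes). At equal list lengths 2 genes were higher in EL, namely Maml3 and Dtx4 (2.12% of all genes). There 1 was higher in PT, namely Lfng (1.83% of all genes). Dtx4, Lfng and Hes5 are named here after their values were seen.

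Among genes of receptor processing, Furin, whose convertase makes the first cut of the receptor, had 1, 2 and 3 summits in PT and 4, 7 and 2 in EL. In lists of equal length Furin had 1 in each PT library and 0, 1 and 0 in EL. Mfng, one of the Fringe enzymes that add sugars to the receptor, had none in PT and 1 in each EL library, and none in any list of equal length. Its relative Lfng had 1, 2 and 2 in PT and 2, 4 and 0 in EL, and in lists of equal length 1, 2 and 1 in PT and none in EL (exact permutation p = 0.1, two-sided).

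Among 12 genes that control trafficking and turnover of Notch proteins, 4 had every EL library above every PT library in full lists (9.26% of all genes) and 1, Dtx4, in lists of equal length (2.12% of all genes). Numb and Numbl, which encode inhibitors of Notch, had no PT summit, and 1, 3 and 1 and 1, 4 and 2 summits in EL replicates 1, 2 and 3. Mib2, a ligase gene for Notch ligands, had none in PT and 1, 3 and 2 in EL. Dtx3, a gene of the Deltex family, had 1 in each PT library and 3, 5 and 4 in EL. At equal list lengths Numb had no summit in any library, Numbl had 1 in EL replicate 2 alone and Mib2 had 1 in EL replicate 3 alone. Dtx3 there had 1 in each PT library and 2, 1 and 3 in EL.

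Of the nuclear cofactor genes, Maml3, a Mastermind coactivator gene, had 1, 1 and 3 summits in PT and 5, 10 and 6 in EL (difference -5.33, two-sided exact permutation p = 0.1; Benjamini-Hochberg value 1 among all genes). Among the top 2897 summits it still had 1 in each PT library and 2, 2 and 3 in EL (exact permutation p = 0.1, two-sided). Maml2 had 3, 2 and 5 in PT and 4, 7 and 4 in EL, and Spen, a corepressor partner of RBPJ, had 2, 3 and 3 in PT and 4, 3 and 3 in EL. Maml3 and Maml2 are long, at 418 and 413 kb, against a median of 17.2 kb over all genes. Per 100 kb of gene and flanks in full lists, Maml3 had 0.364 summits in PT and 1.53 in EL. The upper quartiles over all genes were 0.525 and 1.47. Among other target genes, Heyl had none in PT and 2 in each EL library. Nrarp, a feedback inhibitor gene, had 1, 3 and 4 in PT and 3, 7 and 4 in EL, while Hes5 had 2, 1 and 2 in PT and 2, 3 and 1 in EL. In lists of equal length Heyl had no summit, and Nrarp had 1, 2 and 2 in PT and 0, 2 and 1 in EL. Hes5 there had 2, 1 and 0 in PT and none in EL.

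**Figure D4:**
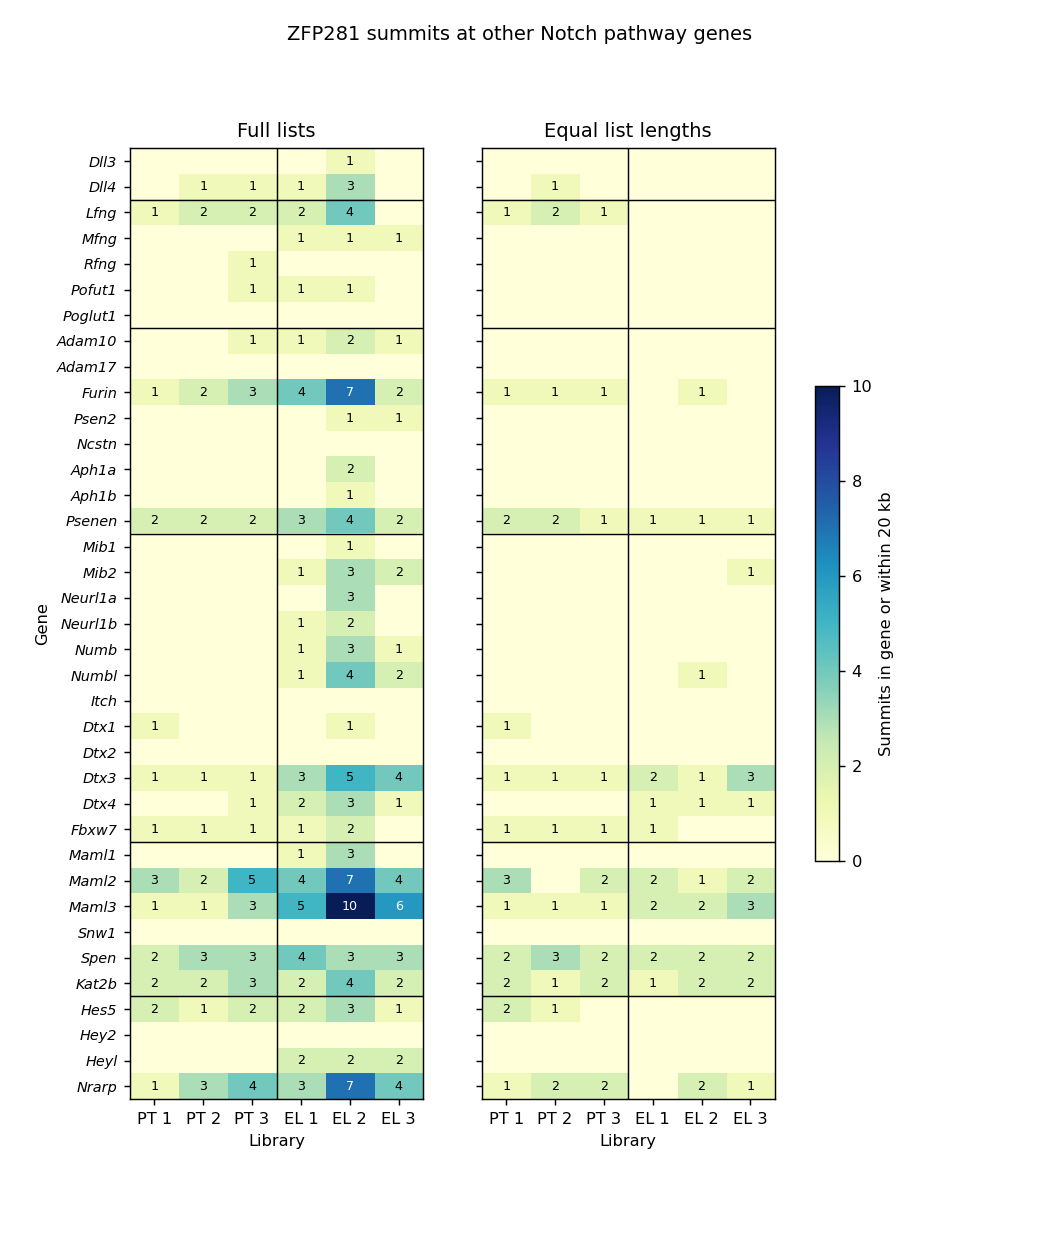
Number of ZFP281 summits (cell value and colour) in or within 20 kb of the other Notch pathway genes (rows, grouped by role) in each PT and EL library (columns), for full lists (left) and lists of equal length (right). Maml3, Heyl, Numb and Numbl have more summits in the 3 EL columns on the left, and Maml3, with 2, 2 and 3 against 1 in each PT column, is the one of these that keeps this on the right.

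Of the 10 genes, Notch4 had the most summits in the gene or its flanks, 24, with some in all 6 libraries. Much of this count lay at its neighbours. The genes outside the pathway lists with summit numbers most similar to those of Notch4 over the 6 libraries were Foxk1 (Euclidean distance 1.41), Gps2 (1.73) and Mllt6 (1.73). Foxk1 had 3, 3 and 3 summits in PT and 4, 6 and 3 in EL. Neighbours of the 10 genes with a summit within 1 kb of their own bodies in every library were the 4 beside Notch4, namely Gpsm3, Pbx2, Rnf5 and Agpat1, which lie so close that they shared summits. Slx4ip, beside Jag1, had 0, 0 and 1 such summit in PT and 2, 2 and 1 in EL, and Sec16a, beside Notch1, had 1 in EL replicate 2 alone. No such summit was found for Adam30, Ephx3, Ager, Nudt14 and Fam120b.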

How the data were processed

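ZFP281 chromatin immunoprecipitation was sequenced, per the labels' protocols, with paired reads (150 bp); the protocol also names an RNA kit. Bowtie2 2.3.4.3, Picard and the build mm10 are named in the submitters' processing notes. The peak caller and the use of the inputs are not stated in the labels. Summits were deposited as 1 list per library. The authors' score column was taken to be the −log10 of a q-value, since its lowest values (1.303 to 1.551) lie just above 1.30; this comes from the values and not from a label.

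Summits on chromosomes 1 to 19, X and Y (1-based) were counted per gene (RefSeq, GRCm38.p6) with pandas 2.3.3 and numpy 2.4.6. Strand and starts came from the RefSeq promoter table, and exons were not used. Where genes overlapped or lay close, a summit counted for each. Tests were exact permutations of 3 against 3 libraries, adjusted by Benjamini-Hochberg over all genes, and were tested on simulated data. The p-values measure the spread between these libraries only. Any 2 lists shared at most 81 exact positions.

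The genes, lists, naming rule and alternatives were chosen with earlier results of these data known. Named were the 10 genes, pathway genes without overlap or among the 5 with most summits, neighbours within 20 kb and 3 genes of like pattern. A single pathway gene is counted with the others but not reported here by name. Alternatives were equal list lengths, scores of at least 5 or 10, other reach and merging distances, nearest gene only, each library left out, other consensus rules and a replicate block.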

Additional observations from a re-analysis of the deposited data

How the results depend on the processing

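Directions were kept in most settings, but not for most genes at equal list lengths. Of 140 differences of single genes under an alternative, 116 kept their direction or, for Dll1 (main value 0), stayed at 0. A further 23 went to 0 or, for Dll1, away from it, and 1 turned, Notch4 at equal list lengths (0.667). In that setting only Notch1, Notch2 and Notch3 kept their direction. Jag1, Jag2, Hes1, Hey1 and Rbpj went to 0 there, and Dll1 to 0.667. No exact permutation p fell below 0.1. Genes of the 10 with every EL library above PT numbered 3 to 5 with a library left out (5 without PT replicate 3), and 0 at equal list lengths or with a score of at least 10. Over all genes that number, 2026, was 463 at equal lengths, 1149 with a score of at least 10, 990 in gene bodies, 1313 for the nearest gene only and 2056 to 3369 with a library left out (3369 without EL replicate 3). The reverse number, 60, was 400 at equal lengths and 65 to 156 with a library left out (146 without PT replicate 1, 156 without EL replicate 2).

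At equal lengths 4 in place of 9 of the 10 genes, and 8 in place of 24 other pathway genes, had a summit in 2 EL libraries. For the other pathway genes, EL also fell to 10 with a score of at least 10 and 14 in gene bodies, and PT went from 12 to 7 with a score of at least 10 and to 21 within 50 kb. In at least 1 PT library were 10 genes in place of 5, and the share of all genes under that rule is not given here. The 44 regions became 18 at equal lengths, with 0 in place of 7 in all 3 EL and no PT library and 1 in place of 0 in all 3 PT and no EL library. Merging at 50 bp left 4 of the 7, and 1 of the 4 in all 6 libraries. The percentile difference, PT minus EL, of the first Hes1 region turned to 1.18 at equal lengths. That of the second, -0.140 in full lists, turned to 19.8 at equal lengths and ranged from -6.29 to 6.35 with a library left out. The cause was not tested.

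With the replicate number as a block, 3 genes of the 10 and 2271 of all genes were lower in PT in each same-numbered pair, and 73 of all genes were higher. Without the block, 2026 and 60 of all genes were free of overlap in these directions. The exact test that flips the signs of the 3 pair differences cannot give a p below 0.25, so it could change no call. Same-numbered libraries did not deviate together (correlations of -0.00145, -0.0242 and -0.112), and PT replicate 1 correlated best with EL replicate 3 (0.149), so the numbers were not used as pairs. The unknown read depth limits every number in full lists.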
